A study of Mus musculus with 8 samples.

Results

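JAK-STAT signalling and the cytokine receptors that feed it were followed in mouse epidermis with and without an epidermis-specific *Rora* deletion (RoraEKO). The set held 39 genes, namely 1 ligand (*Tslp*), 4 JAK kinases, 6 STAT factors, 8 inhibitors of the CIS and SOCS family, 4 PIAS proteins and 16 receptor chains. Members were taken by gene symbol, through the Ensembl identifier of each row, and all 39 were present among the 55416 genes of the count table. Of these, 33 had enough counts to be tested, out of 13147 genes tested in all.

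Cytokines that use this pathway bring receptor chains together at the cell surface, which activates the JAK kinases bound to the receptor tails. The kinases phosphorylate the receptors and then the STAT factors, and these move to the nucleus and switch on target genes. CIS and the SOCS proteins are among those targets and shut the receptors or kinases down again, whereas PIAS proteins restrain STATs in the nucleus. In skin, keratinocytes release TSLP when the barrier is disturbed, and they respond to IL-6 family, IL-20 family, type 2 and interferon cytokines through the receptors described here.

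The 8 libraries were polyA RNA-seq of dorsal epidermis from mice at postnatal day 4, with 4 libraries labelled control (A1, B1, C1 and C6, wild type in the labels) and 4 labelled RoraEKO (A3, B4, C2 and C3, epidermis *Rora* knockout). RoraEKO mice carry floxed *Rora* alleles removed by a Cre transgene under the keratin 14 promoter, so deletion is expected in keratinocytes and not in immune cells or melanocytes of the same tissue. The controls were littermates, and whether they carried floxed alleles or Cre is not given in the sources used here. The study's text gives 4 mice per genotype, which equals the number of libraries, but the labels do not name the animal of each library, so the p-values are taken to measure the spread between these libraries. In bulk epidermis, fewer cells of a type and less RNA per cell cannot be told apart.

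Library totals ran from 17286903 to 26705533 counts. In CPM (counts per 1000000 counts, scaled by the TMM method), 3 counts in a library corresponded to 0.113 to 0.196, below which a gene was treated as not detectable at this depth. *Rora* itself was at 212 ± 66.6 CPM in the control and 196 ± 34.6 CPM in RoraEKO libraries (SD, n = 4 each), so gene-level counts did not separate the genotypes, and counts per exon were not examined. *Bmal1*, a clock gene known as a direct target of RORα, was at 17.6 ± 3.74 and 3.32 ± 0.589 CPM (adjusted p = 0.000238, edgeR). *Xist*, transcribed from the inactive X chromosome, reached 416 CPM in control C1 and 527 CPM in control C6 but at most 0.0546 CPM in the remaining 6 libraries, while Y-linked *Ddx3y* had no counts in C1 or C6, so the sexes were not balanced between the genotypes. Suprabasal keratinocyte markers summed to between 46133 and 71760 CPM in control and 86901 and 108207 CPM in RoraEKO libraries, a difference carried by *Krt1* (29965 and 48566 CPM) and *Krt10* (23895 and 37714 CPM), as the log2 fold changes of the other 4 lay between -0.41 and 0.02. None of the 6 was called, and their part in the results below was not tested. Basal markers summed to between 186 and 501 CPM in control and 221 and 1189 CPM in RoraEKO libraries, so mRNA of differentiated keratinocytes prevailed throughout. The upper RoraEKO value was that of B4, which stood apart. *Krt14* was at 706 CPM in B4 and 96.2 to 187 CPM in the other RoraEKO libraries, and *Krt5* at 371 and 63.4 to 78.1 CPM.

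A gene was called changed when edgeR's quasi-likelihood test gave a Benjamini-Hochberg adjusted p under 0.05 over all genes tested and a fold change over 1.5 in either direction. By this rule 2 of the 33 members tested were higher in RoraEKO epidermis (*Tslp* and *Socs3*), against a background of 2.3% of all genes tested. A single member was lower (*Il20rb*), against a background of 3.22%. The remaining 30 were not called, and 20 of the 33 members had a log2 fold change within 0.3 of 0. The median log2 fold change was 0.12 over the members tested and -0.04 over all genes tested. All 4 RoraEKO libraries lay above all 4 controls for 4 tested members (*Tslp*, *Stat3*, *Socs3* and *Il13ra1*), against 5.4% of all genes tested. All 4 lay below the controls for 1 tested member (*Il20rb*), against 7.54%. The called members, 6.06% higher and 3.03% lower of those tested, were a ligand, an inhibitor and a receptor chain. No JAK kinase, STAT factor or PIAS protein was among them, but the calls were too few to tell the roles apart.

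**Figure D1:**
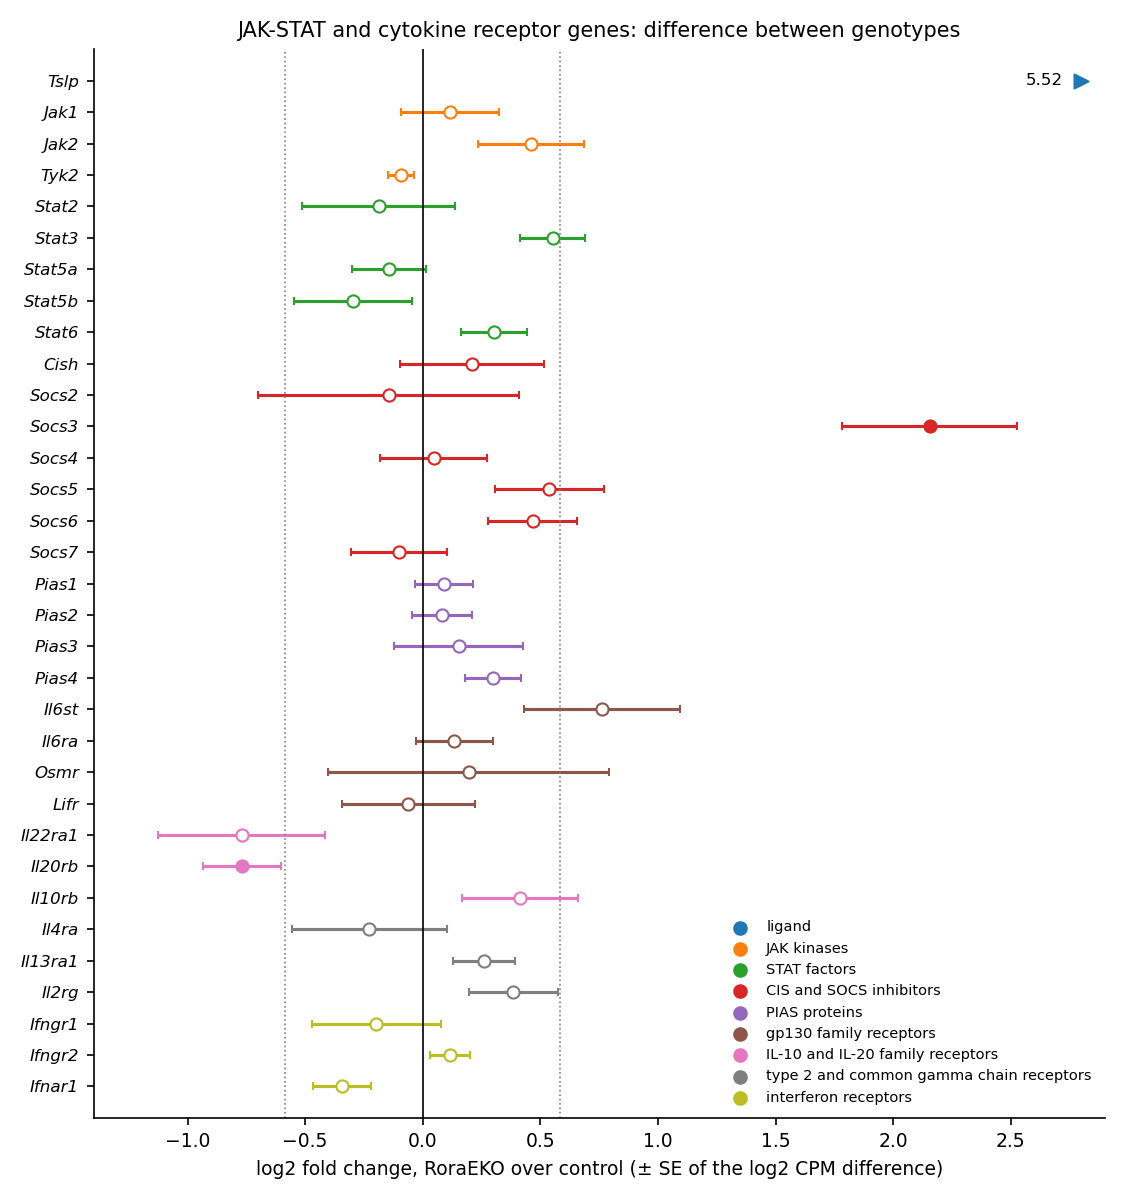
Log2 fold change of the 33 tested members (RoraEKO over control, horizontal axis) with the SE of the difference in mean log2 CPM between 4 libraries per genotype; filled symbols mark called genes, colours mark roles and dotted lines mark the 1.5-fold cutoff. *Tslp* lies off the axis at 5.52, *Socs3* at 2.16 and *Il20rb* at -0.77, while the other 30 genes have open symbols.

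*Tslp* (ENSMUSG00000024379) encodes thymic stromal lymphopoietin, a cytokine that epithelial cells release and that acts on dendritic cells, innate lymphoid cells and sensory nerves. Its level was 0, 0.0546, 0 and 0.0375 CPM in control libraries A1, B1, C1 and C6, from 0, 1, 0 and 1 counts. In RoraEKO libraries A3, B4, C2 and C3 it was 1.04, 0.863, 1.45 and 1.70 CPM. The genotypes did not overlap, and both letter C libraries of RoraEKO were the highest. Taking 3 counts per library as the floor in controls, *Tslp* was at least 9.48-fold higher in RoraEKO libraries (adjusted p = 0.00119, edgeR quasi-likelihood test). The fitted log2 fold change of 5.52 rests on 2 counts in the controls and is no measure of size. The gene passed the filter on low counts only through its RoraEKO libraries, and even there its level was near 1 CPM.

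With no filter on low counts *Tslp* was also called (adjusted p = 0.000334, edgeR), whereas a filter of 10 counts in every library removed it because of its control counts. The chains of its receptor, which are carried mainly by immune cells, were close to the limit of detection. *Crlf2*, the TSLP-binding chain, was at 0.460 ± 0.157 CPM in control and 0.312 ± 0.218 CPM in RoraEKO libraries (SD, n = 4 each). *Il7r*, the partner chain shared with the IL-7 receptor, was at 0.534 ± 0.438 and 0.450 ± 0.356 CPM, and neither chain was tested.

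**Figure D2:**
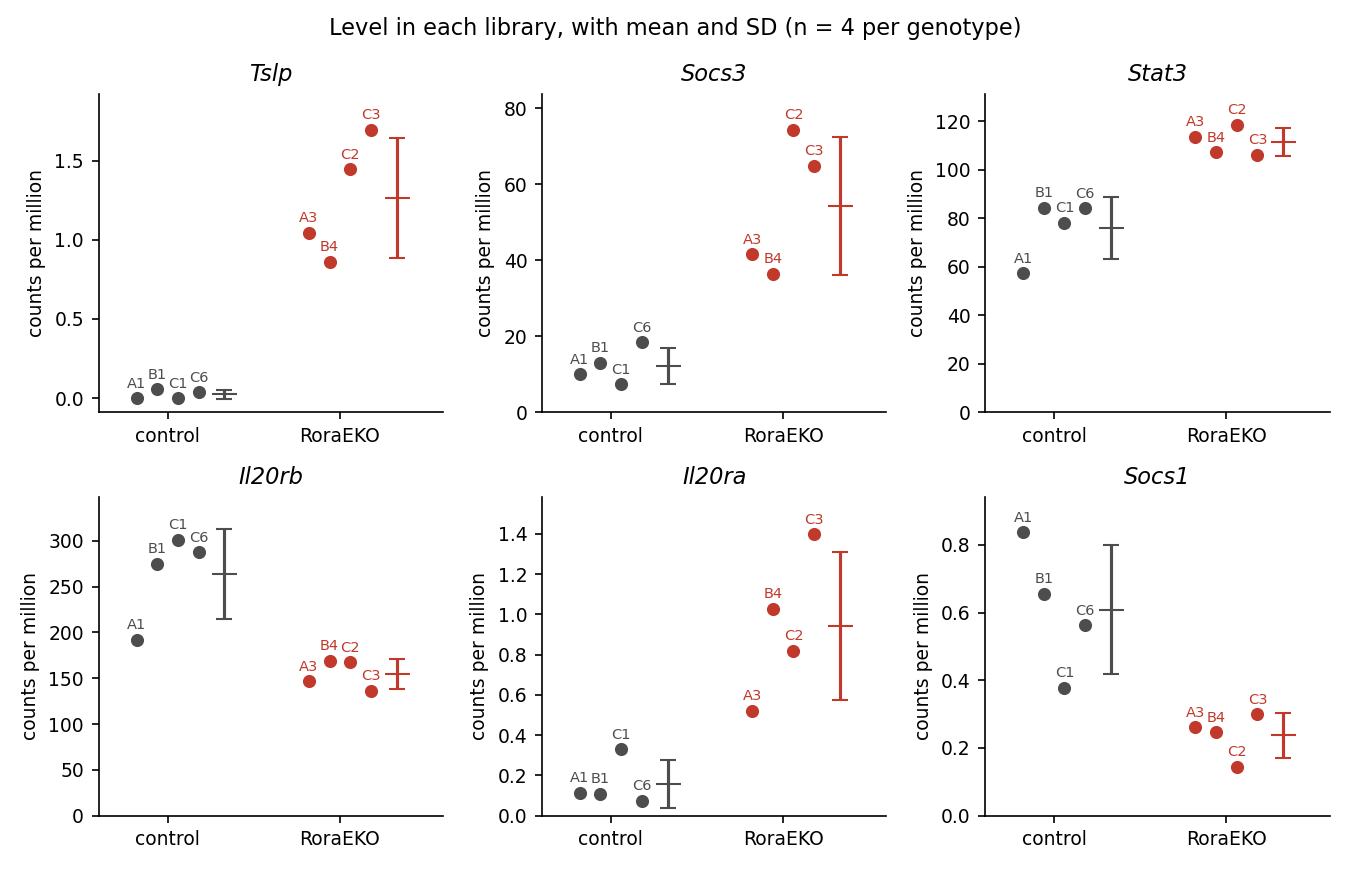
CPM of 6 members in each library (vertical axes start at 0 except for *Tslp*, where 0 is marked), with the mean and SD of 4 libraries per genotype beside the points. Only members whose genotypes do not overlap are shown, and *Il13ra1*, also without overlap, is left out. *Il20ra* and *Socs1* stayed under the count filter, so the shares over all genes tested do not cover them, and *Stat3* stayed under the 1.5-fold cutoff.

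None of the JAK kinases was called. *Jak1*, which serves most receptors listed here, was the most abundant kinase at 12.9 CPM per kb of transcript in control and 14.0 in RoraEKO libraries. *Tyk2* followed at 3.01 and 2.82, and *Jak2* at 0.841 and 1.15 CPM per kb. Per length, *Jak1* made up 70.8% to 79.5% of the summed level of the kinases in controls and 76.4% to 78.4% in RoraEKO libraries, so the make-up of this family overlapped between genotypes. *Jak1* was at 47.2 CPM in control A1 and between 72.4 and 90.2 CPM in the other 7 libraries (log2 fold change 0.11, SE 0.208, adjusted p = 0.832, edgeR). *Tyk2* varied little, with 13.9 to 15.3 CPM in controls and 12.6 to 14.6 in RoraEKO libraries. *Jak2* ranged from 3.24 to 5.73 CPM in controls and from 5.42 to 8.19 in RoraEKO libraries, and the difference did not pass the test (log2 fold change 0.46, adjusted p = 0.328). *Jak3*, which pairs with the common gamma chain of lymphocytes, had 1 to 16 counts per library and was not tested.

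**Figure D3:**
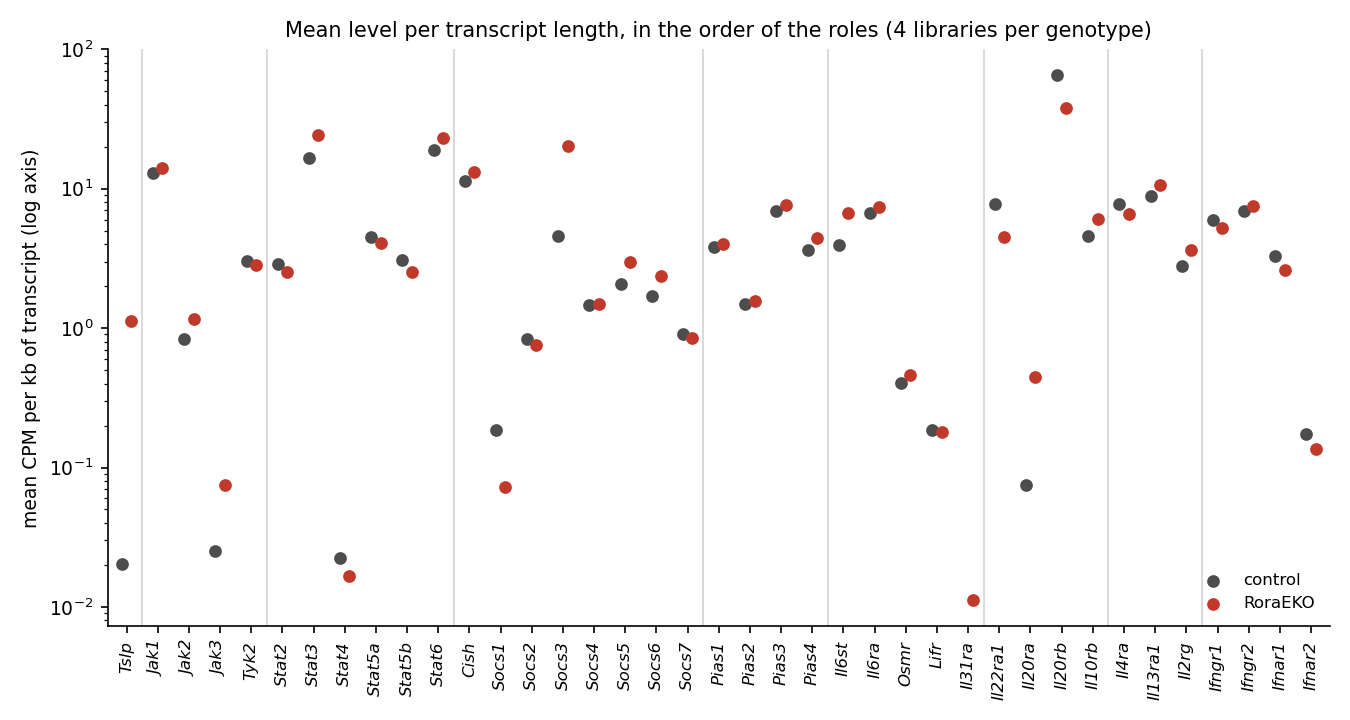
Mean CPM per kb of canonical transcript (vertical, log axis) for all 39 members in the order of their roles, with grey points for control and red points for RoraEKO (4 libraries each). *Il20rb* is the highest point in both genotypes at 64.9 and 38.0, and *Il31ra* has no control point because it was listed at 0 counts there.

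Among the STAT factors, *Stat6* and *Stat3* stood far above the rest per length. *Stat6*, which carries IL-4 and IL-13 signals, was at 18.8 CPM per kb in control and 23.2 in RoraEKO libraries. *Stat3*, the main effector of IL-6 family and IL-20 family receptors, was at 16.6 and 24.4 CPM per kb. *Stat5a*, *Stat5b* and *Stat2* lay between 2.51 and 4.49 CPM per kb in both genotypes, and *Stat4*, a factor of T cells and NK cells, had at most 8 counts in a library and was not tested.

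*Stat3* was measured at 57.4, 84.3, 78.1 and 84.0 CPM in control libraries A1, B1, C1 and C6. In RoraEKO libraries A3, B4, C2 and C3 it was at 113, 107, 119 and 106 CPM. Every RoraEKO library was above every control, and the RoraEKO values were tightly grouped (111 ± 5.81 against 76.0 ± 12.7 CPM, SD, n = 4 each). The log2 fold change was 0.55 (SE 0.137) with an adjusted p of 0.0488 by the edgeR test, which passed the cutoff on p but not that on fold. Its adjusted p lay between 0.0105 and 0.123 across the 19 alternatives, and the log2 differences were 0.98, 0.35 and 0.47 between samples whose titles begin with A, B and C, letters whose meaning is not given. Without control A1, the lowest library, the log2 fold change was 0.44. *Stat3* and *Stat5a* overlap on opposite strands of chromosome 11. The libraries were made with a stranded kit, but whether counting used the strand is not stated.

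The other STAT factors did not pass the test. *Stat6* was at 72.3 ± 11.8 CPM in control and 89.1 ± 8.86 in RoraEKO libraries (log2 fold change 0.30, adjusted p = 0.305, edgeR). *Stat5a* (log2 fold change -0.14), *Stat5b* (-0.30) and *Stat2* (-0.19) had fold changes below 0. The share of *Stat3* in the summed level of the family, per length, was 34.8% to 38.97% in controls and 40.9% to 46.4% in RoraEKO libraries. The share of *Stat5a* was 9.46% to 10.3% and 6.498% to 7.53%, and that of *Stat5b* 5.45% to 7.75% and 3.75% to 5.09%. The genotypes did not overlap in these 3 shares, which are bound to each other because they add up to a whole, and they were not tested.

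*Socs3* (ENSMUSG00000053113), the inhibitor that STAT3 induces and that blocks gp130 and leptin receptors, rose in RoraEKO epidermis. It lies on chr11:117856905-117860898 of GRCm39, on the minus strand. Its level was 9.93, 13.0, 7.34 and 18.4 CPM in control libraries A1, B1, C1 and C6. In RoraEKO libraries A3, B4, C2 and C3 it was 41.6, 36.5, 74.3 and 64.8 CPM. The lowest RoraEKO library was above the highest control, and both letter C libraries of RoraEKO were above the letter A and B libraries. The means were 12.2 ± 4.75 and 54.3 ± 18.2 CPM (SD, n = 4 each), with a log2 fold change of 2.16 (SE 0.373, 4.46-fold) and an adjusted p of 0.00441 by the edgeR test.

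The call of *Socs3* held under all 19 alternatives, with adjusted p from 3.2e-09 to 0.0245 and log2 fold changes from 1.98 to 2.45. Those with no fold cutoff or an adjusted p of 0.1 only loosened the cutoffs of the main fit, so no call could be lost there. Within letters A, B and C the log2 differences were 2.05, 1.48 and 2.57. Predicted genes *Gm73339* and *Gm57366* overlap *Socs3* on the opposite strand, and reads from them cannot be told apart if counting ignored the strand. Per length, *Socs3* went from 4.57 to 20.4 CPM per kb, which placed it beside *Stat6* and *Stat3* in RoraEKO libraries.

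None of the other 6 tested members of the CIS and SOCS family was called. *Cish*, which is induced by STAT5 and restrains IL-2 family and growth hormone receptors, was at 30.2, 42.2, 34.7 and 59.2 CPM in controls and 38.4, 33.3, 61.7 and 59.2 CPM in RoraEKO libraries, in the order given above. These values overlapped (log2 fold change 0.21, SE 0.306, adjusted p = 0.764, edgeR). *Socs5* was at 9.83 ± 1.43 CPM in controls and 14.3 ± 4.11 in RoraEKO libraries (SD, n = 4 each), a log2 difference of 0.54 with an adjusted p of 0.205, with RoraEKO B4 highest at 19.6. *Socs6* was at 10.4 ± 2.31 and 14.4 ± 2.05 CPM (log2 fold change 0.47, adjusted p = 0.202) and passed the cutoffs only with *Xist* as a covariate (adjusted p = 0.0498). *Socs4*, *Socs7* and *Socs2* had log2 fold changes of 0.05, -0.10 and -0.15, and RoraEKO B4 stood apart for *Socs2* at 0.493 CPM against 1.89 to 3.28 in the other RoraEKO libraries.

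*Socs1*, the inhibitor that blocks JAK kinases in interferon and IL-4 responses, had 22, 12, 8 and 15 counts in control and 4, 6, 3 and 6 counts in RoraEKO libraries. It was below the count filter, at 0.609 ± 0.191 and 0.238 ± 0.0661 CPM (SD, n = 4 each), and all RoraEKO libraries were below all controls. With the filter removed it did not pass the test (log2 fold change -1.29, adjusted p = 0.286, edgeR). In the summed level of the family per length, *Cish* was the largest part in every control library, at 46.0% to 51.6%, and *Socs3* was at 13.8% to 22.0%. In every RoraEKO library *Socs3* was the largest part, at 42.7% to 51.2%, and *Cish* was at 28.5% to 33.2%. These shares add up to a whole and were not tested, and the level of *Cish* itself was not called.

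Promoters of *Socs3* and *Cish* are shown because both are known STAT targets of 1 family and only *Socs3* passed the test here. They come from RefSeq (GRCm38.p6), run 5′ to 3′ along the gene, and hold 250 bases before and 50 bases after the start of the gene, 300 in all. The *Socs3* window is chr11:117969317-117969616 on the minus strand, and the *Cish* window is chr9:107296409-107296708 on the plus strand. Capitals mark matches to TTCNNNGAA, the palindrome that STAT factors bind, searched on both strands.
Socs3: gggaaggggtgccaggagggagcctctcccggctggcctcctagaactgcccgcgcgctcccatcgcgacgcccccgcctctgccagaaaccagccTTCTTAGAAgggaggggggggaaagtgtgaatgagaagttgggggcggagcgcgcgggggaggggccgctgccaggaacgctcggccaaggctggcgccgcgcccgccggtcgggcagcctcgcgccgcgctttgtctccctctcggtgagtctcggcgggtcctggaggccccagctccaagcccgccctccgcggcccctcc
Cish: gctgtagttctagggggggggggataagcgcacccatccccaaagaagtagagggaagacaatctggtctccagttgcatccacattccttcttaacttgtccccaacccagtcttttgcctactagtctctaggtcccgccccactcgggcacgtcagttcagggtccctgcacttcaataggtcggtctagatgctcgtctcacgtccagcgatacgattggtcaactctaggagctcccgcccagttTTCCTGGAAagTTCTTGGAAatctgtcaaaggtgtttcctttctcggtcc
In these windows *Socs3* had 1 match, TTCTTAGAA at position 97, and *Cish* had 2, TTCCTGGAA at position 251 and TTCTTGGAA at position 262. There were 36 windows for 31 of the 39 members, some with 2, and 5 of the 36 windows held a match, while 8.3% of all 32851 RefSeq promoters of this length held one. A match describes the letters of the window and not binding.

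PIAS proteins, SUMO ligases that restrain STAT factors and other regulators, differed little between the genotypes. The log2 fold changes of *Pias1*, *Pias2*, *Pias3* and *Pias4* lay between 0.08 and 0.30, and none was called. *Pias3*, named for its action on STAT3, had the highest level of the family, with 6.90 CPM per kb in control and 7.67 in RoraEKO libraries. *Pias3* was at 12.5 CPM in control A1 and between 18.3 and 26.9 CPM in the other 7 libraries. *Pias4* was at 9.31 ± 1.35 CPM in control and 11.4 ± 1.02 in RoraEKO libraries (SD, n = 4 each), with an adjusted p of 0.316.

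Of the gp130 family receptors, *Il6ra* and *Il6st* were the abundant chains. *Il6ra*, the IL-6 binding chain, was at 58.3 ± 11.9 CPM in control and 63.9 ± 6.43 in RoraEKO libraries (SD, n = 4 each), a log2 difference of 0.13 with an adjusted p of 0.748. *Il6st*, which encodes gp130, the signalling chain of the whole family, was at 19.2, 36.5, 35.6 and 45.04 CPM in controls and 47.4, 42.0, 74.5 and 67.5 CPM in RoraEKO libraries. The genotypes overlapped only between control C6 and RoraEKO B4, and the log2 fold change of 0.76 (SE 0.331) did not pass the test (adjusted p = 0.155). The differences within letters were uneven, at 1.30, 0.20 and 0.82 on the log2 scale for A, B and C. *Il6st* was called only with the title letter as a block (adjusted p = 0.0253), and its adjusted p went up to 0.326 over the alternatives.

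*Osmr*, the oncostatin M receptor chain, and *Lifr*, the LIF receptor chain, were both near 2 CPM. *Osmr* was at 3.46 CPM in control A1, 3.85 in RoraEKO A3 and 4.07 in RoraEKO B4, and between 1.01 and 2.22 CPM in the other 5 libraries, and the genotypes overlapped (log2 fold change 0.19, SE 0.597, adjusted p = 0.912, edgeR). *Lifr* had a log2 fold change of -0.06. *Il31ra*, the IL-31 receptor chain of sensory neurons and myeloid cells, was listed at 0 counts in 7 libraries and at 4 counts in RoraEKO B4. None of the 10 ligands of the IL-6 and LIF family was called, and 4 of them were tested.

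*Il20rb* (ENSMUSG00000044244), the chain that receptors for IL-19, IL-20 and IL-24 share, fell in RoraEKO epidermis. It lies on chr9:100338496-100368841 of GRCm39, on the minus strand, and was the most abundant member per length in both genotypes. Its level was 192, 275, 301 and 288 CPM in control libraries A1, B1, C1 and C6. In RoraEKO libraries A3, B4, C2 and C3 it was 146, 169, 168 and 136 CPM. All RoraEKO libraries were below all controls, with control A1 nearest to them. The means were 264 ± 49.3 and 155 ± 16.1 CPM (SD, n = 4 each), with a log2 fold change of -0.77 (SE 0.167) and an adjusted p of 0.0243 by the edgeR test.

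The call of *Il20rb* held under 12 of the 19 alternatives, which include those with looser cutoffs on the main fit, where no call could be lost. Of the 8 fits that left out a library, only those without control A1 or RoraEKO B4 called the gene. Without control B1, C1 or C6 the adjusted p was 0.0848, 0.0719 and 0.0644, and without RoraEKO A3, C2 or C3 it was 0.0800, 0.0792 and 0.0873. The log2 fold change in these 6 fits, which had 1 library fewer, stayed between -0.75 and -0.69. With *Xist* as a covariate the log2 fold change was -0.58 and the adjusted p 0.134. The direction was the same in every alternative, and within letters A, B and C the log2 differences were -0.39, -0.70 and -0.96.

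The chains that pair with *Il20rb* are *Il20ra* and *Il22ra1*. *Il20ra* lies on chr10:19588037-19639086 of GRCm39 and had 3, 2, 7 and 2 counts in control and 8, 25, 17 and 28 counts in RoraEKO libraries. All RoraEKO libraries were above all controls (0.157 ± 0.117 and 0.942 ± 0.368 CPM, SD, n = 4 each), but the gene stayed just under the count filter and was not tested. Without the filter it passed the cutoffs (adjusted p = 0.0195, edgeR), as it did in DESeq2 (adjusted p = 0.00121). Of 4 control libraries, 3 held no more than 3 counts, so a fitted fold change is no measure of size here. Predicted gene *Gm33332* overlaps *Il20ra* on the opposite strand. Per length, *Il20ra* was at 0.0748 CPM per kb in control and 0.447 in RoraEKO libraries, far below *Il20rb* in both.

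*Il22ra1*, which also pairs with IL-10Rβ to bind IL-22, was at 15.6, 19.5, 13.3 and 32.6 CPM in controls and 8.42, 16.97, 12.2 and 9.74 CPM in RoraEKO libraries. The values overlapped, with control C6 far above the rest, and the log2 fold change of -0.77 (SE 0.357) did not pass the test (adjusted p = 0.218, edgeR). Without a single library its log2 fold change ran from -0.998 to -0.416. *Il10rb* was at 17.6 ± 4.35 CPM in control and 23.4 ± 5.53 in RoraEKO libraries (SD, n = 4 each), a log2 difference of 0.41 with an adjusted p of 0.368. Its share of the family's summed level per length was 4.44% to 7.51% in controls and 9.51% to 14.4% in RoraEKO libraries, while *Il20rb* made up 75.7% or more in every library. These shares add up to a whole, so that of *Il10rb* also moves with the level of *Il20rb*, and they were not tested. None of the 11 ligands of the IL-10 and interferon families was tested, all were at 3 counts or fewer in every library, and 7 were listed at 0 throughout (*Il10*, *Il24*, *Il22*, *Ifnl2*, *Ifnl3*, *Ifnb1* and *Ifne*).

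The promoters of *Il20rb* and *Il20ra* are shown because these chains form 1 receptor and had differences of opposite sign. They are RefSeq windows of the same length and build, chr9:100486424-100486723 on the minus strand for *Il20rb* and chr10:19712337-19712636 on the plus strand for *Il20ra*. Capitals mark a match to AGGTCA, the core of the element that ROR receptors bind (here TGACCT, its reverse strand), in *Il20rb*, and to TTCNNNNGAA, the wider palindrome that STAT6 prefers, in *Il20ra*.
Il20rb: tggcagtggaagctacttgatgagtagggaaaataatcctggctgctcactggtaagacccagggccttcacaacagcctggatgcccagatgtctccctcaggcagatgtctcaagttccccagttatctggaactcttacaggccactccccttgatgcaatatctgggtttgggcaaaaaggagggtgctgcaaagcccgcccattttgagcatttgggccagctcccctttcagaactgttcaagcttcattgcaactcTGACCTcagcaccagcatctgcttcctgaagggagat
Il20ra: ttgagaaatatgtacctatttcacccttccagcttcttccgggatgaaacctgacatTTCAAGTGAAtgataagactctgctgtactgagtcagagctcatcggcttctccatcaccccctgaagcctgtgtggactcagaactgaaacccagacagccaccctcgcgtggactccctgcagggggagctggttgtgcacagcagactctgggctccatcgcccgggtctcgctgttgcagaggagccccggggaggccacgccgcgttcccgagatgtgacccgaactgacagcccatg
The match in *Il20rb* began at position 264 of the window, 13 bases after the start of the gene, and that in *Il20ra*, TTCAAGTGAA, at position 58. Both windows were searched for AGGTCA, TTCNNNGAA and TTCNNNNGAA, and only the match found is marked. *Il20rb* had no match to either STAT palindrome, and *Il20ra* had none to AGGTCA or TTCNNNGAA. The bases beside AGGTCA were not part of the search. Of the 36 windows of members, 7 held AGGTCA on either strand and 3 held TTCNNNNGAA. Among all 32851 promoters the shares were 16.3% and 6.95%.

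The type 2 and common gamma chain receptors were not called. *Il4ra*, the IL-4 and IL-13 receptor chain, was at 62.0 CPM in control A1 and between 22.3 and 45.7 CPM in the other 7 libraries (log2 fold change -0.23, SE 0.3301, adjusted p = 0.764, edgeR). *Il13ra1*, its partner for IL-13, was at 30.0, 43.0, 39.8 and 44.2 CPM in controls and 45.1, 49.4, 47.4 and 46.0 CPM in RoraEKO libraries. Every RoraEKO library was above every control, by a small margin, and the log2 fold change of 0.26 did not pass the test (SE 0.130, adjusted p = 0.355). *Il2rg*, the common gamma chain, which is mostly of lymphocyte origin, was at 4.67 ± 1.15 and 6.09 ± 0.807 CPM (SD, n = 4 each; adjusted p = 0.373). T cell markers summed to between 18.1 and 44.7 CPM in controls and 15.6 and 62.1 CPM in RoraEKO libraries. All 6 had log2 fold changes between 0.31 and 0.53 without being called, and their part in the level of *Il2rg* was not tested.

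Interferon receptor chains differed little. *Ifngr1* and *Ifngr2*, the chains for interferon gamma, had log2 fold changes of -0.20 (adjusted p = 0.764, edgeR) and 0.12 (adjusted p = 0.683). *Ifngr2* had almost the same level in each control, from 25.3 to 27.1 CPM, and 24.7 to 31.3 CPM in RoraEKO libraries. *Ifnar1*, of the type I interferon receptor, was at 13.6 ± 1.40 CPM in control and 10.7 ± 1.47 in RoraEKO libraries (SD, n = 4 each), a log2 difference of -0.34 with an adjusted p of 0.230. *Ifnar2*, its partner, had 4 to 24 counts per library and was not tested.

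**Figure D4:**
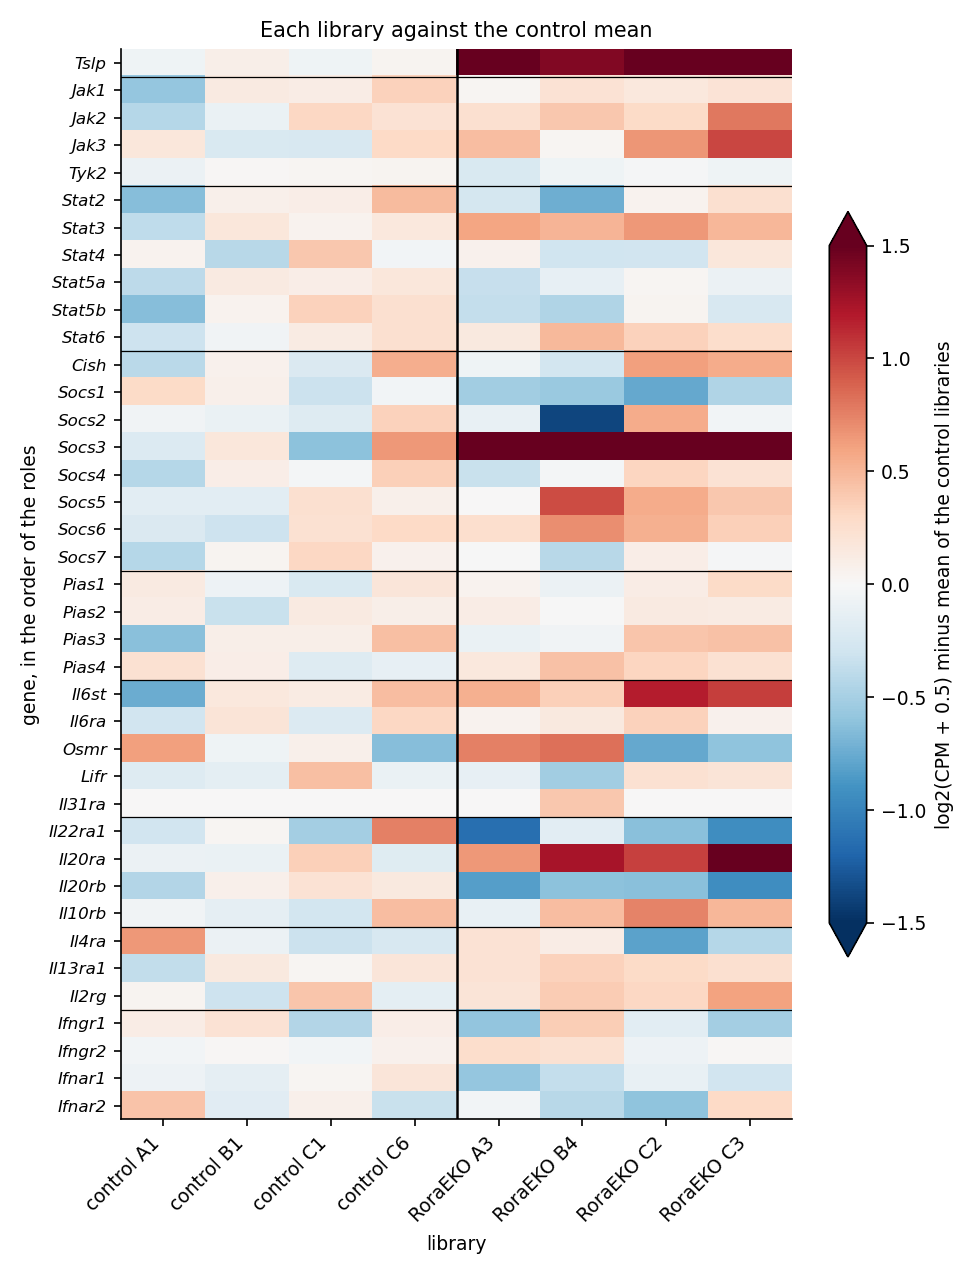
Log2(CPM + 0.5) of all 39 members in each of the 8 libraries (columns) minus the mean of the 4 control libraries, on a colour scale that ends at ±1.5, with members ordered by role (horizontal lines part the roles). *Socs3* and *Tslp* are the only rows in full or nearly full red across RoraEKO, and control A1 is blue in many rows.

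Within the genotypes, members moved partly with the library. Control A1 was the lowest control for 20 of the 33 tested members and control C6 the highest for 19. RoraEKO A3 was the lowest of its genotype for 17 members and RoraEKO C2 the highest for 15. Both low libraries bear the letter A and both high ones the letter C. These counts describe the members and were not set against other genes.

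Other genes of the pathway, in lists that share no gene with the members, were measured for context. Of 102 such genes 50 were tested, 2 were called higher and 1 lower, against 2.3% and 3.22% of all genes tested, so both counts were near the background. *Bcl3*, a nuclear IκB family protein and STAT3 target, was at 6.51, 5.68, 4.40 and 3.27 CPM in controls and 11.5, 20.9, 14.7 and 12.2 CPM in RoraEKO libraries. Its groups did not overlap, and it rose by a log2 fold change of 1.58 (SE 0.288, adjusted p = 0.00694, edgeR). It was the single called gene of 15 tested in the STAT3-responsive list, whose median log2 fold change was 0.16 against -0.04 over all genes tested. The list ranged from -0.76 to 1.58. At its lower end *Ccnd1*, a cyclin (-0.76, adjusted p = 0.142), and *Myc*, a growth factor response gene (-0.64, adjusted p = 0.115), were not called. All RoraEKO libraries lay below all controls for *Myc*, against 7.54% of all genes tested. They lay above all controls for *Pim2* (0.29) and *Cebpd* (0.79), also not called, and for *Bcl3*, against 5.4%. *Ccnd1*, *Myc*, *Pim2* and *Cebpd* were chosen after their values were seen.

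The STAT6-responsive list had 5 of 13 genes tested and a median log2 fold change of 0.08, with *Postn* higher and *Gata3* lower. *Postn*, which encodes the matrix protein periostin, was at 14.1 ± 3.72 CPM in control and 30.4 ± 7.93 in RoraEKO libraries (SD, n = 4 each), a log2 difference of 1.11 with an adjusted p of 0.0236. Fibroblast markers, whose parent cells also express *Postn*, summed to between 1.37 and 6.38 CPM in controls and 2.51 and 10.4 CPM in RoraEKO libraries, and their part in this result was not tested. Of these 6 markers 3 had enough counts to be tested, and *Lum* was at 0 to 4 counts. *Gata3*, a factor of keratinocyte differentiation and of type 2 lymphocytes, was at 126 ± 36.3 and 74.3 ± 8.64 CPM (SD, n = 4 each), a log2 difference of -0.77 with an adjusted p of 0.0493. *Bcl3* was called under all 19 alternatives and *Postn* under 15, and *Postn* was not called without RoraEKO B4 (adjusted p = 0.0564), without RoraEKO C3 (0.0681), with library size alone as the scaling (0.05003) or with the level of *Xist* in the model (0.127). *Gata3* was called under 9, and of the fits that left out a library only the 1 without control C6 called it, with adjusted p up to 0.181 in the others. For *Bcl3*, *Postn* and *Gata3* alike, the alternatives that only loosened the cutoffs of the main fit could not lose the call.

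No gene was called among 13 tested of 28 other cytokine receptor chains (median log2 fold change -0.11), 11 tested of 12 phosphatases and adaptors (0.05), or 2 tested of 8 type 2 and common gamma chain ligands. Of these ligands *Il31*, *Il7*, *Il9* and *Il21* were listed at 0 counts in all libraries. Among markers of other cells in the tissue, Langerhans and dendritic cell markers summed to between 67.9 and 204 CPM in controls and 66.6 and 91.3 CPM in RoraEKO libraries. The value of 204 was that of control C1, and the control median was 87.2 CPM. All 6 of these markers had log2 fold changes between -0.65 and -0.40 without being called. Pan-leukocyte markers summed to between 10.3 and 29.2 CPM and between 9.74 and 25.6 CPM, and melanocyte markers to between 25.2 and 56.2 CPM and between 17.3 and 33.2 CPM. All 5 melanocyte markers were tested and had log2 fold changes below 0 (median -0.84) without being called, and their sums overlapped only through control C6, the lowest control. Neutrophil markers reached at most 0.225 CPM in controls and 2.07 CPM in RoraEKO libraries, with *Elane* at 0 in all libraries. Mast cell markers summed to at most 2.74 CPM, with *Ms4a2* at 0. Macrophage markers summed to between 7.54 and 16.4 CPM in controls and 9.59 and 11.9 CPM in RoraEKO libraries, and skeletal muscle markers to between 4.31 and 8.97 CPM and between 5.69 and 9.06 CPM. Endothelial markers summed to between 0.437 and 0.875 CPM in controls and 0.411 and 2.94 CPM in RoraEKO libraries. *Pecam1* was at 1.40 and 1.30 CPM in RoraEKO C2 and C3, in which *Tslp* and *Socs3* were also highest. It reached at most 0.638 CPM in the remaining 6. *Cdh5* and *Kdr* were also highest in C2 and C3, from at most 16 counts. *Tek* was not, at 0.145 CPM in C2 and 0.1997 CPM in C3. Controls A1, B1 and C1 were above these values of *Tek* (0.343, 0.219 and 0.237 CPM) and control C6 below them (0.0751 CPM). *Emcn* had 1 count in C2 and 0 in C3. None of the 5 endothelial markers had enough counts to be tested. The sums of these lists overlapped between the genotypes, and the part of these cells in the levels of *Tslp*, *Socs3* and *Il20rb* was not tested.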

How the data were processed

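Epidermis was peeled from heat-treated back skin, and TruSeq Stranded mRNA libraries were sequenced in pairs of reads. Trimming by the authors used Skewer, mapping to GRCm39 used STAR 2.5.3a, and expected counts per gene were estimated with RSEM (bcl2fastq 2.20.0.422 made the reads, and edgeR 3.28.0 is named for their own comparison). The deposited table holds these expected counts, not normalized, for 55416 Ensembl genes. The release of their annotation and the use of strand in counting are not given in the sources used here.

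Symbols, positions and canonical transcript lengths came from GENCODE M39, which held 54749 of the identifiers. Counts were rounded, filtered with filterByExpr, scaled by TMM and tested with edgeR 4.0.16 (quasi-likelihood, legacy form, R 4.3.3) over 13147 genes, 4 control against 4 RoraEKO libraries, with Benjamini-Hochberg adjustment. SEs are of the difference in mean log2 CPM (prior count 2). Floors of 3 counts cover counting error only. No pair of libraries was a duplicate. The scripts were tested on simulated data. All 39 members and the genes past the cutoffs in 7 pathway lists were named, with cell type markers as sums. Members and lists were chosen with earlier results of these data known. Alternatives were RLE or no scaling, DESeq2 1.42.0, other edgeR tests, other filters and cutoffs, the title letter as a block, *Xist* as a covariate and each library left out. The other cutoffs (no fold cutoff, or an adjusted p under 0.1) were looser and applied to the main fit, so its calls could not be lost there.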

Additional observations from a re-analysis of the deposited data

Results flagged for a closer look

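In 5 cases 1 library lay far from the other 3 of its genotype, by the gap to the nearest library as a share of the range (Dixon's 95% critical value). With 77 groups examined, chance gives about 1 in 20. *Stat5a* was at 13.3 CPM in control A1 and between 18.8 and 19.8 CPM in the other controls. *Pias2* was at 3.66 CPM in control B1 and between 5.07 and 5.25 CPM in the others. *Lifr* was at 2.65 CPM in control C1, against 1.52 to 1.65 CPM. *Il20ra* was at 0.331 CPM in control C1, against 0.0751 to 0.114 CPM, from 7 counts against 2 or 3. *Il31ra* was at 0.164 CPM in RoraEKO B4, from 4 counts, and listed at 0 in the other RoraEKO libraries. With the other 3 libraries at 0, any count would have been flagged.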

How the results depend on the processing

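Under 19 alternatives, 8 of which left out 1 library, 591 of 626 member values kept their direction and side of the cutoffs. In the alternatives with looser cutoffs the values were those of the main fit, so their direction could not change. Members called higher numbered 2, or 4 without a filter on low counts (*Stat3* and *Il20ra* added), 3 in DESeq2 and without control A1, control C1 or RoraEKO A3 (*Il20ra*, which with a library left out passed the filter through its RoraEKO libraries alone), with *Xist* as a covariate (*Socs6*), with the title letter as a block (*Il6st*) and with no fold cutoff (*Stat3*), and 1 with at least 10 counts in every library, which removed *Tslp*. Members called lower numbered 1, or 0 with *Xist* as a covariate, and 0 to 1 with a library left out. Pathway genes called numbered 3, 1 to 3 with a library left out (1 without RoraEKO B4 or C3), 4 with the title letter as a block and 2 with RLE scaling, library size alone, no filter, the 10-count filter or *Xist* as a covariate. Values that turned sign were all of 13 members that were not called, with log2 fold changes within 0.30 of 0. With *Xist* as a covariate these were 0.16 for *Stat2*, 0.000106 for *Stat5a*, 0.036 for *Stat5b*, 0.13 for *Socs7*, -0.16 for *Osmr* and 0.20 for *Lifr*, and with library size alone -0.0059 for *Socs4*. With a library left out, log2 fold changes ran from -0.047 to 0.26 for *Jak1*, -0.12 to 0.0067 for *Tyk2*, -0.37 to 0.019 for *Stat2*, -0.48 to 0.18 for *Socs2*, -0.085 to 0.21 for *Socs4*, -0.23 to 0.0195 for *Socs7*, -0.023 to 0.14 for *Pias2*, -0.023 to 0.35 for *Pias3*, -0.15 to 0.53 for *Osmr*, -0.16 to 0.16 for *Lifr* and -0.34 to 0.045 for *Il4ra*. The causes were not tested. Over all genes 302 were called higher and 423 lower, against 518 and 573 in DESeq2, 182 and 290 with *Xist* as a covariate, 174 and 283 without control B1, and 188 and 287 without RoraEKO C3. With the title letter as a replicate block 420 were higher and 579 lower, with the member counts given above. Deviations of libraries with the same letter correlated at 0.483 for A, 0.0498 for B and 0.131 to 0.436 for C. Between letters A and C the correlations were -0.517 to -0.215, and between B and the other letters -0.303 to 0.282. The letters, whose meaning is not given, were used only in that alternative fit and for the differences within letters. The count filter kept 6 of 39 members out of the test, and of these only *Il20ra* was called without it.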
